A study of Homo sapiens with 3 samples.

Results

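The 4 human teneurin genes, TENM1, TENM2, TENM3 and TENM4, and 4 further genes with known roles in neurons, NRXN3, NPTX1, GABRA2 and OXTR, were followed across 3 expression microarrays of lung fibroblasts. They are read by 17 probe sets, each naming exactly 1 of the 8 genes in the platform annotation, out of 41091 probe sets that name a single gene of 19775. The genes were put together because they differ between the arrays, so the signals given here describe these arrays and no test was made on them. All 3 cultures were IMR-90 ER:Ras, a derivative of the human lung fibroblasts IMR-90, kept in serum-containing medium. All of them carry the Ras protein as a fusion that 4-OHT (4-hydroxytamoxifen) switches on through its estrogen receptor part. The growing culture had no treatment. The OIS culture, in oncogene-induced senescence, had been kept in 100 nM 4-OHT for 6 days. The RS culture was in replicative senescence, reached after 10 weeks of repeated passage. How the fusion gene is driven, and whether the line is a single clone, is not given in the sources used here. The labels name no vehicle control for 4-OHT and no growing array matched to each senescent state, so treatment, time in culture and senescence cannot be told apart.

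Teneurins are very large proteins that cross the cell membrane a single time and bind, through their outer part, each other and the latrophilins, adhesion receptors on neighbouring cells. They are known for matching synaptic partners in the developing nervous system. NRXN3 encodes neurexin 3, a presynaptic adhesion protein that binds neuroligins, cerebellins and LRRTM proteins. NPTX1 encodes neuronal pentraxin 1, a secreted protein that gathers AMPA-type glutamate receptors at synapses. GABRA2 encodes the alpha-2 subunit of the GABA-A receptor, a chloride channel opened by the transmitter GABA. OXTR encodes the oxytocin receptor, which signals through Gq proteins and phospholipase C-beta and is known for contraction of the uterus and milk ejection.

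Since each condition was read on 1 array with no replicate, conditions could not be tested against each other, and the number of arrays sets how precise any value can be. The unit is the deposited MAS5 signal, a linear intensity per probe set. The arrays were alike in scale, with a median signal from 44.9 to 46.2. The pooled median of 45.5 served as a floor, and a fold is written with "at least" where the dimmer signal did not exceed it. The only repeat came from genes with more than 1 probe set. Over 6541 such genes for OIS over growing, 6529 for RS over growing and 6540 for OIS over RS, log2 ratios varied between probe sets of a gene with an SD of 0.36, 0.33 and 0.36. This SD covers probe error and not differences between cultures. Markers of the labelled cell type were present: 13 of 14 lung fibroblast markers were above the floor on all 3 arrays, with COL1A1 at 33451, 36639 and 34357 (growing, OIS, RS), and TBX4 was the 1 below it. Of 16 neuron markers 10 exceeded the floor on some array, among them TUBB3 at 13361, 7870 and 13225 and SYT1 at 725, 1446 and 796, and RBFOX3, SYP, STMN2, DCX, ELAVL3 and NEFL were at or below it on every array. Of 7 glial markers only MBP was above it on any array.

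The teneurins and neural genes fell into several patterns. GABRA2 was high in OIS alone, TENM1 was high in RS alone, OXTR and NRXN3 were low in OIS and highest in RS, and NPTX1 was lowest in RS. TENM4 and TENM3 differed by about 2-fold at most, and TENM2 was not above the floor on any array. Of the 17 probe sets, 14 exceeded the floor on some array, 8 on all 3 and 3 on none, so 7 of the 8 genes had a usable signal.

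**Figure D1:**
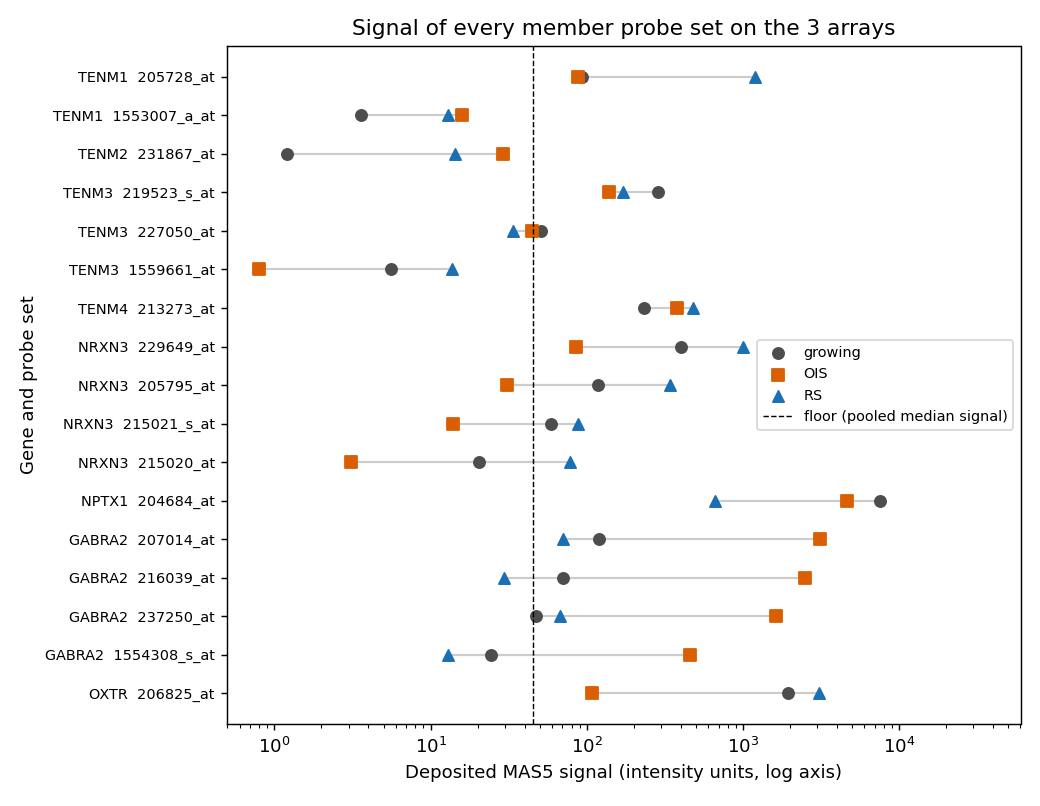
Deposited MAS5 signal (log axis) of each of the 17 probe sets of the teneurins and neural genes in growing cells (circles), OIS (squares) and RS (triangles), 1 array each, with the floor of 45.5 dashed. All 4 GABRA2 probe sets are highest in OIS, 3 NRXN3 probe sets are lowest in OIS and highest in RS while 215020_at exceeds the floor in RS alone, and TENM1 probe set 205728_at is at 93.8 and 87.7 on the growing and OIS arrays and at 1191 on the RS array.

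Because OXTR and NRXN3 shared a pattern that GABRA2 and TENM1 did not, the 250 bases before the outermost listed start of these 4 genes are shown, from RefSeq on GRCh38.p14, 5′ to 3′ on the gene's strand. The windows are chr3:8769614-8769863 on the minus strand for OXTR, chr14:78170123-78170372 on the plus strand for NRXN3, chr4:46390301-46390550 on the minus strand for GABRA2 and chrX:125204313-125204562 on the minus strand for TENM1. Capitals mark matches to the motifs searched, which here were GC boxes alone.
OXTR: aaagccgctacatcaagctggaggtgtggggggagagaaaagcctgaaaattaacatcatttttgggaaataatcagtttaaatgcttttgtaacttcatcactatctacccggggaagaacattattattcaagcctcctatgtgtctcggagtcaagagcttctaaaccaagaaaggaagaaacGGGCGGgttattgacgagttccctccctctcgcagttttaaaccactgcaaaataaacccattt
NRXN3: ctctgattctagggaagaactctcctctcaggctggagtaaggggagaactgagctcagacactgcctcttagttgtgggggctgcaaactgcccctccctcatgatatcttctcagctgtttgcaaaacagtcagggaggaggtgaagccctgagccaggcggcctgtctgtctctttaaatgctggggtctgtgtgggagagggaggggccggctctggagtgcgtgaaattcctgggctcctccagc
GABRA2: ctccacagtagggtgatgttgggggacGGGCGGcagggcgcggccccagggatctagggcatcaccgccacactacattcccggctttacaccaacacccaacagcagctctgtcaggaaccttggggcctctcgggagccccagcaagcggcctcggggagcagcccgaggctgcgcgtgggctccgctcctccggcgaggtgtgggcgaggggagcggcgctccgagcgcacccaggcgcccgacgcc
TENM1: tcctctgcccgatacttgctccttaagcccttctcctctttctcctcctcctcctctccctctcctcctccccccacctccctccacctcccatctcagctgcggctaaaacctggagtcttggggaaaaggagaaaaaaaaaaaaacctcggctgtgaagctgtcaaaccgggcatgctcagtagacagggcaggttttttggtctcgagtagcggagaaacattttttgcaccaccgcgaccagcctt
On both strands these motifs were searched: the AP-1 site TGANTCA, the cyclic AMP response element TGACGTCA, the GC box GGGCGG, the TATA box TATAAA, the CCAAT box CCAAT and the NF-kappaB site. The table held 16 windows for 7 of the 8 genes, and 35116 windows in all. Neither the AP-1 site nor the cyclic AMP response element was found in any of the 16 windows, and the shares over all windows were 6.57% and 1.65%. A GC box lay in 1 of 3 OXTR windows, 2 of 3 NRXN3 windows, 1 of 3 GABRA2 windows and 2 of 2 TENM3 windows, against 42.6% of all windows. None lay in the 2 TENM1 windows, the 2 TENM2 windows or the 1 TENM4 window. The NF-kappaB site was matched in 1 of 3 OXTR windows, a window further downstream (chr3:8768732-8768981) with 3 matches, and in no window of the other 6 genes, against 5.21% of all windows. TATA boxes were found in 1 TENM2 and 1 GABRA2 window, against 10.7%. CCAAT boxes were found in 1 window each of TENM1, TENM3 and TENM4, against 32.0%. A match is a string of letters and not a bound site, and the arrays do not tell which start site was used. The windows shown differed in base composition: the ratio of observed to expected CpG was 0.15 for NRXN3, 0.48 for TENM1, 0.64 for OXTR and 0.73 for GABRA2, where the median over all windows was 0.56. The other windows of these genes had other ratios: 0.88 and 0.31 for NRXN3, 0.11 for TENM1, 0.87 and 0.44 for OXTR and 0.64 and 0.38 for GABRA2. The outermost windows of OXTR and NRXN3, whose signals had the same order over the arrays, had a GC content of 42% and 56.8%. Their other windows had 68% and 57.6% for OXTR and 66.4% and 51.2% for NRXN3.

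TENM1, on chromosome X, was the teneurin with the widest range. Its probe set 205728_at read 93.8, 87.7 and 1191 in growing, OIS and RS cells. The RS signal stood apart, and the other two gave a log2 ratio of -0.10, smaller than the SD between probe sets. The ratio of RS over growing was 12.7-fold (log2 3.67), and RS over OIS was 13.6-fold, a log2 ratio of OIS over RS of -3.76. By size these were the 5th highest of 11616 genes above the floor on both arrays and the 6th lowest of 11549. The other TENM1 probe set, 1553007_a_at, was below the floor on all 3 arrays at 3.6, 15.9 and 12.9, so the RS value rests on 1 probe set.

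TENM4, on chromosome 11, and TENM3, on chromosome 4, had small and opposite differences from growing cells. The single TENM4 probe set read 232, 379 and 481 in growing, OIS and RS cells. It was 1.63-fold higher in OIS and 2.07-fold higher in RS, while the log2 ratio of OIS over RS, -0.34, was smaller than the SD between probe sets. TENM3 probe set 219523_s_at read 285, 140 and 172 in growing, OIS and RS cells. That was 2.04-fold lower in OIS and 1.66-fold lower in RS, and the ratio of OIS over RS, -0.29, was again smaller than that SD. The OIS call was at the edge of 2-fold: after quantile normalization the log2 ratio was -0.91 in place of -1.03. TENM3 probe set 227050_at was at 50.7, 44.9 and 33.8, around the floor, and 1559661_at was below it at 5.6, 0.8 and 13.8. TENM2, on chromosome 5, has a single probe set, which read 1.2, 29.3 and 14.3, and no fold is given for values below the floor. The antisense gene TENM3-AS1 has 2 probe sets, at 51.1, 55.3 and 79.1 and at 95.9, 61.2 and 66.3 in growing, OIS and RS cells.

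The genes listed as teneurin partners were of the ADGRL family, which includes the latrophilins, and of FLRT proteins, which bind latrophilins beside teneurins. All 7 listed genes exceeded the floor somewhere. None reached 2-fold in OIS over growing, where 4.92% of all 13466 genes above the floor were higher and 6.63% lower, so a count of none among 7 is near the background. In RS 1 was at least 2-fold lower and none higher, where 3.72% of all genes were higher and 5.58% lower. That gene was the latrophilin ADGRL2, which read 339, 393 and 155 in growing, OIS and RS cells, 2.18-fold lower in RS than in growing cells and 2.53-fold higher in OIS than in RS. FLRT3, at 392, 662 and 296, was 2.24-fold higher in OIS than in RS. The list medians were 0.21 for OIS over growing and -0.16 for RS over growing, the latter set by FLRT1, whose RS signal of 24.9 was taken at the floor. The median of all genes above the floor was 0.00 in both. FURIN, a protease that cleaves precursor proteins including teneurins, was at 108, 160 and 167, and MBD1, a methyl-CpG binding protein reported to bind the inner part of TENM1, at 1917, 2357 and 2368.

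NRXN3, on chromosome 14, was low in OIS and high in RS. Its brightest probe set, 229649_at, read 404, 85.1 and 1003 in growing, OIS and RS cells. That made it 4.74-fold lower in OIS and 2.48-fold higher in RS than in growing cells, and 11.8-fold lower in OIS than in RS. The last ratio, a log2 of -3.56, was the 9th lowest of 11549 genes. Probe set 205795_at had the same order, at 118, 30.7 and 343. It was at least 2.60-fold lower in OIS and 2.90-fold higher in RS. A higher floor, 88.8 at the 60th percentile, gave a log2 ratio of OIS over growing of -0.41 for it in place of -1.38, since the growing signal was then close to the floor. A dimmer probe set, 215021_s_at, had this order too at 59.4, 13.9 and 88.2. The last, 215020_at, at 20.4, 3.1 and 78.4, exceeded the floor in RS alone, so its growing and OIS signals have no order. In OIS, 3 of the 4 probe sets were below the floor, so NRXN3 was near the lower limit of measurement in those cells. Splice forms and start sites of NRXN3, of which the gene has many, were not told apart by these probe sets.

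Among the partners of neurexins, 9 of 19 listed genes exceeded the floor on some array. In OIS 1 was at least 2-fold higher and 1 lower, beside 4.92% and 6.63% of all genes above the floor. In RS 2 were higher and none lower, beside 3.72% and 5.58%. CBLN2, a secreted cerebellin that bridges neurexins to receptors on the other side of the synapse, read 18.6, 349 and 240 in growing, OIS and RS cells. Its single probe set was at least 7.67-fold above growing cells in OIS and at least 5.27-fold in RS. NLGN1, a neuroligin, read 327, 96.7 and 229, 3.39-fold lower in OIS, and a second probe set gave a log2 ratio of -2.48 beside -1.76. CLSTN2, a calsyntenin of the postsynaptic membrane, was at 1.7, 4.0 and 160, at least 3.51-fold higher in RS, with a log2 ratio of 0.48 from its other probe set. The medians of this list were -0.14 in OIS and 0.20 in RS. Not all listed genes were analysed here.

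NPTX1, on chromosome 17, was low in RS. Its single probe set read 7533, 4656 and 662 in growing, OIS and RS cells. RS stood apart from both: it was 11.4-fold lower than growing cells, and OIS was 7.04-fold higher than RS. The OIS signal was 1.62-fold lower than that of growing cells, a log2 ratio of -0.69, larger than the SD between probe sets of 0.36. By size the RS ratio, -3.51, was the 4th lowest of 11616 genes. Of 10 listed pentraxins and AMPA receptor subunits, only NPTXR, PTX3 and GRIA4 were above the floor on any array. PTX3, a long pentraxin of innate immunity that fibroblasts secrete, read 18426, 22050 and 12418 and did not reach 2-fold. NPTXR, the membrane-bound neuronal pentraxin receptor, was at 18.0, 45.0 and 92.6, at least 2.04-fold higher in RS, but its other probe set gave a log2 ratio of -0.42. GRIA4 was near the floor at 3.9, 50.3 and 31.3.

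GABRA2, on chromosome 4, was higher in OIS than in growing or RS cells by all 4 of its probe sets. Probe set 207014_at read 120, 3119 and 70.7 in growing, OIS and RS cells, 26.1-fold higher in OIS than in growing cells and 44.1-fold higher than in RS. Probe set 216039_at read 71.0, 2489 and 29.6, 35.1-fold higher in OIS than in growing cells. On both, the growing and RS signals lay far below that of OIS. Probe set 237250_at, at 47.3, 1620 and 67.0, was 34.3-fold higher in OIS, and 1554308_s_at, at 24.4, 457 and 12.9, at least 10.0-fold higher. The log2 ratios of OIS over growing thus ran from 3.33 to 5.13. For RS over growing they ran from -0.76 to 0.50, with no probe set at 2-fold. The brightest probe set had the 15th highest ratio of 11619 genes in OIS over growing and the 7th highest of 11549 in OIS over RS.

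Of 20 listed subunits and clustering proteins 5 exceeded the floor on some array. Over growing cells none was at least 2-fold higher in either state, where 4.92% of all genes were in OIS and 3.72% in RS, so a count of none among 5 is near the background. One gene, GABRA4, was at least 2-fold lower in OIS and 2 were in RS, where 6.63% and 5.58% of all genes were. GABRB1, the beta-1 subunit, read 916, 517 and 127 in growing, OIS and RS cells. It was 7.24-fold lower in RS than in growing cells and 4.08-fold higher in OIS than in RS, and its 3 other probe sets above the floor had log2 ratios from -2.56 to -1.84 beside -2.86. GABRA4, the alpha-4 subunit, read 112, 47.2 and 34.4, 2.36-fold lower in OIS and at least 2.45-fold lower in RS. Along chromosome 4 the gene order places GABRG1 before GABRA2, and COX7B2 and GABRA4 after it. GABRG1, the gamma-1 subunit, was below the floor at 12.4, 1.1 and 1.5, and COX7B2 at 3.5, 28.5 and 12.3. The gamma-3 subunit gene GABRG3 was also below the floor. GPHN, which encodes the scaffold protein gephyrin, was level at 328, 351 and 312. The list median was -0.62 in both senescent states because GABRR2, at 69.9, 26.6 and 44.6, set it in each with a signal taken at the floor, so both medians are bounds.

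Markers of endothelium, another cell type, were read beside the GABRA2 values. Of 5 such markers 3 exceeded the floor on some array. Of these, 2 were at least 2-fold higher in OIS than in growing cells, where 4.92% of all genes above the floor were. PECAM1 read 49.0, 135 and 52.7, 2.76-fold higher in OIS, and VWF read 59.7, 130.5 and 80.9, 2.19-fold higher. TEK was at 1251, 1275 and 2033, and CDH5 and KDR were below the floor on all 3 arrays. The signals of the 5 markers summed to 1368, 1570 and 2175 in growing, OIS and RS cells, and their part in the GABRA2 values was not tested.

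OXTR, on chromosome 3, was low in OIS. Its single probe set read 1952, 109 and 3058 in growing, OIS and RS cells. OIS was 18.0-fold lower than growing cells and 28.2-fold lower than RS, log2 ratios of -4.17 and -4.82. Each was the 2nd lowest among the genes above the floor on both arrays, of 11619 and 11549. The RS signal was 1.57-fold above that of growing cells, a log2 ratio of 0.65, below 2-fold and larger than the SD between probe sets of 0.33. Of its relatives, the vasopressin receptor AVPR1A was at 92.5, 53.0 and 51.8 and AVPR1B at 27.4, 44.7 and 54.0, and neither reached 2-fold. The genes of the ligands, OXT and AVP, were at or below the floor on all 3 arrays.

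Of 11 listed signalling genes downstream of the oxytocin receptor that were above the floor, 3 had the same order as OXTR, lowest in OIS and highest in RS, as did 16.1% of all genes above the floor. They were PLCB4, PLCB1 and PLCB3, of which PLCB3 was nearly level at 278, 269 and 303. PLCB4, a phospholipase C-beta, read 3626, 1022 and 8944 in growing, OIS and RS cells. It was 3.55-fold lower in OIS and 2.47-fold higher in RS, and its other probe set gave log2 ratios of -2.45 and 1.24. PLCB1, a second phospholipase C-beta, was at 1342, 653 and 1425, 2.05-fold lower in OIS, although its other probe sets were at -0.07 and -0.96 on the log2 scale. RGS2 and RGS4, which shut off G proteins, read higher in both states than in growing cells, and each passed 2-fold in 1 of them. RGS2 read 955, 3951 and 1398, 4.14-fold higher in OIS and 1.46-fold in RS. RGS4 read 2653, 4354 and 7171, 1.64-fold higher in OIS and 2.70-fold in RS. The Gq subunit genes GNAQ, at 3276, 2456 and 3240, and GNA11, at 3467, 2251 and 3077, did not reach 2-fold. Of the 11 genes, 1 was at least 2-fold higher and 2 lower in OIS, beside 4.92% and 6.63% of all genes, and 2 were higher and none lower in RS, beside 3.72% and 5.58%.

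The order lowest in OIS and highest in RS was also that of markers of several cell types. It was found in 3 of 6 smooth muscle markers above the floor, 4 of 13 lung fibroblast markers, 3 of 10 neuron markers and 2 of 5 epithelial markers. The only glial marker above the floor had it too, and 0 of 3 endothelial and 0 of 3 blood markers did. Of all genes above the floor 16.1% had this order, which sets no least size of difference. Of the fibroblast markers, the matrix proteoglycan gene DCN read 20075, 7746 and 22971, 2.59-fold lower in OIS than in growing cells. LUM, a related proteoglycan gene, was at 13729, 10702 and 23798, THY1 at 5200, 3481 and 6393 and TBX5 at 1522, 1026 and 1562. Among neuron markers MAP2 was at 145, 78.0 and 169, INA at 273, 222 and 556 and SNAP25 near the floor at 54.5, 33.8 and 69.8. Of the epithelial markers EPCAM was at 157, 49.1 and 194 and KRT18 at 2987, 2963 and 6010, nearly level between growing and OIS cells. The other 3 above the floor had another order: KRT8 at 106, 126 and 234, KRT19 at 55.5, 3.2 and 25.3 and SFTPC at 80.7, 68.7 and 47.4. CDH1 was below the floor on all arrays, and the 6 listed summed to 3405, 3233 and 6528.

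Of the 6 smooth muscle markers, 2 were at least 2-fold lower in OIS, where 6.63% of all genes above the floor were. In RS 1 was at least 2-fold higher, where 3.72% of all genes were. The calponin gene CNN1 read 2442, 1084 and 5750, and TAGLN, an actin-binding protein gene, 14190, 6804 and 22028. SMTN, which encodes smoothelin, was at 393, 339 and 481. The signals of the 6 markers summed to 32362, 24370 and 55852 in growing, OIS and RS cells. The actin gene ACTA2, a large part of that sum, read 15225.9, 16060.5 and 27518.5. It was highest in RS but slightly higher in OIS than in growing cells. The smooth muscle myosin gene MYH11 stayed near the floor at 59.0, 48.8 and 54.0, and the desmin gene DES at 51.1, 33.8 and 20.9. The part of the markers of these cell types in the OXTR and NRXN3 values was not tested. In bulk RNA, fewer cells making a transcript and less of it per cell cannot be told apart. The signals of the 16 neuron markers summed to 14798, 9957 and 15063, most of it from the tubulin gene TUBB3, and their part was likewise not tested.

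**Figure D2:**
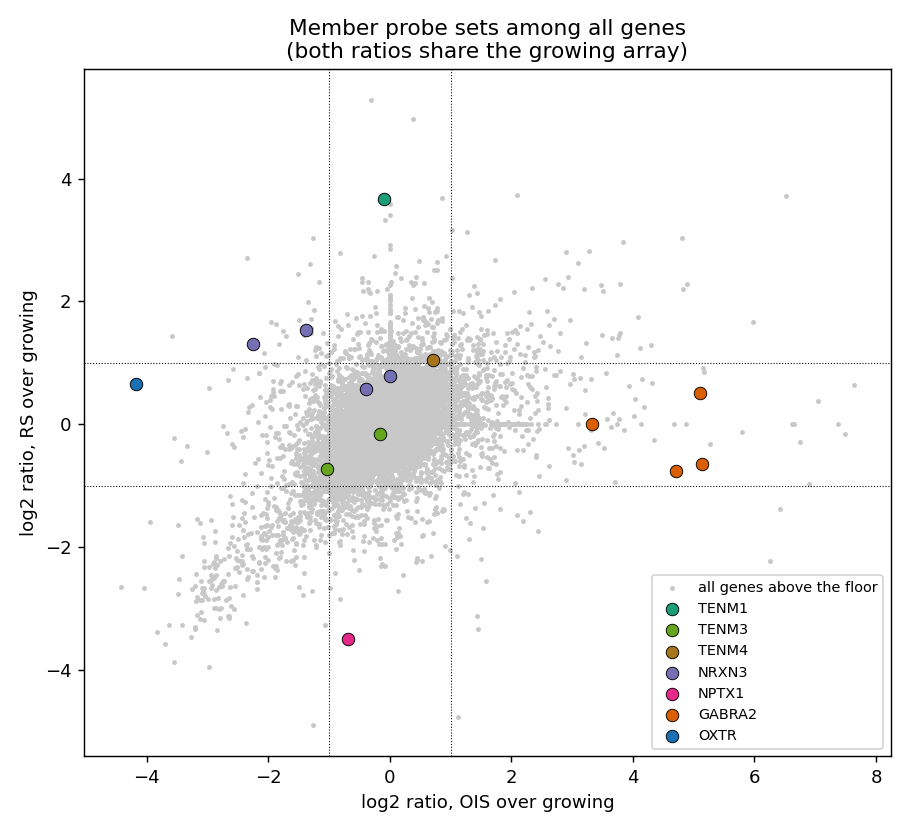
Log2 ratio of OIS over growing (x axis) against RS over growing (y axis) for the 14 probe sets of the teneurins and neural genes that exceeded the floor somewhere (coloured), and for all 13466 genes above it (grey), with 2-fold dotted. Both axes contain the same growing array. OXTR lies at -4.17 and 0.65, TENM1 at -0.10 and 3.67, NPTX1 at -0.69 and -3.51, and the GABRA2 probe sets between 3.33 and 5.13 on the x axis.

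Counted over the 14 probe sets above the floor, 4 were at least 2-fold higher in OIS than in growing cells, all of GABRA2, where 4.38% of all 25698 probe sets by the same filter were. Another 4 were at least 2-fold lower, of TENM3, NRXN3 (2 probe sets) and OXTR, where 6.43% were. In RS over growing 4 were higher, of TENM1, TENM4 and NRXN3 (2 probe sets), where 3.26% were, and 1 was lower, of NPTX1, where 5.01% were. In OIS over RS 5 were higher, of NPTX1 and GABRA2 (4 probe sets), where 4.96% were, and 4 were lower, of TENM1, OXTR and NRXN3 (2 probe sets), where 5.2% were. The genes were chosen on these comparisons, so the counts describe the choice. Probe sets of a gene share their transcript, and every pair of comparisons shares an array.

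Genes with a pattern most like each member were found from the distance between their log2 ratios of OIS and RS over growing, over the 3 arrays. They were taken from genes above the floor on the same arrays and within 1 log2 unit of the member's highest signal. Nearest to OXTR were the noncoding RNA LINC01279 at a distance of 1.08 log2 units, the hepatocyte growth factor receptor MET at 1.19 and the secreted glycoprotein RELN (reelin) at 1.31, among 3167 candidates. MET read 2146, 272 and 3223, and RELN, which guides migrating neurons, 1570, 155 and 1223. For NRXN3 they were the small heat shock protein CRYAB at 0.24, the growth factor FGF1 at 0.49 and the potassium channel KCNJ2 at 0.49. CRYAB read 228, 54.1 and 506, FGF1 324, 88.4 and 999. For GABRA2 they were the sulfotransferase CHST2 at 0.62, the chemokine CXCL10 at 1.13 and RIPOR3-AS1 at 1.17, and CHST2 read 200.3, 4098 and 168. For TENM1 they were cardiac actin ACTC1 at 0.35, the muscle caveolar protein CAVIN4 at 0.95 and the sialomucin PODXL at 1.23. CAVIN4 read 229, 192 and 1522. For NPTX1 the nearest were farther off, TNFRSF19 at 1.43, asparagine synthetase ASNS at 1.46 and TMPO at 1.63, among 1859 candidates. For TENM4 and TENM3, whose ratios were small, the nearest were ENGASE at 0.08 and LSM14B at 0.02. With 3 arrays, such likeness is a description of shape alone.

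**Figure D3:**
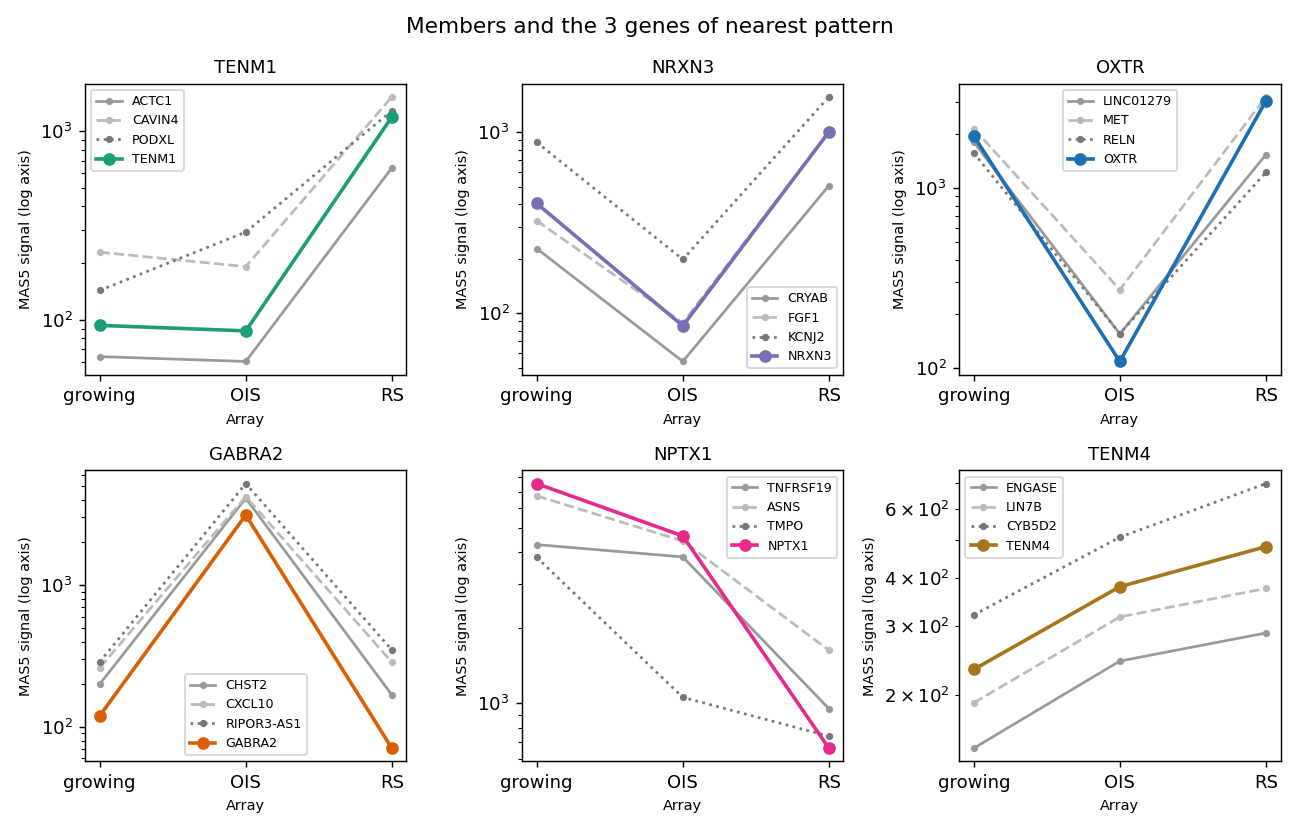
MAS5 signal (log axis) on the growing, OIS and RS arrays of TENM1, NRXN3, OXTR, GABRA2, NPTX1 and TENM4 (coloured, brightest probe set) and of the 3 genes nearest to each in pattern (grey), 1 array per point. OXTR, LINC01279, MET and RELN dip in OIS, and GABRA2, CHST2, CXCL10 and RIPOR3-AS1 peak there.

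Genes of cell adhesion and axon guidance, the process in which teneurins take part, differed in both directions. Of 31 listed genes 22 exceeded the floor on some array. In OIS 2 were at least 2-fold higher and 3 lower, and in RS 4 were higher and 3 lower. The median log2 ratio was 0.02 in OIS and -0.09 in RS, values set in part by genes with signals taken at the floor. For all genes above the floor the shares were 4.92% higher and 6.63% lower in OIS, and 3.72% higher and 5.58% lower in RS. SLITRK6, a synaptic membrane protein with leucine-rich repeats, read 113, 686 and 135 in growing, OIS and RS cells, 6.08-fold higher in OIS, and its 2 other probe sets gave log2 ratios of 2.20 and 2.82. L1CAM, a neural cell adhesion molecule, read 33.6, 188 and 202, above growing cells by at least 4.13-fold in OIS and by at least 4.44-fold in RS. Its relative CHL1 was at 81.1, 53.5 and 212, 2.61-fold higher in RS. SLIT2, a secreted guidance cue, read 913, 296 and 195, lower by 3.09-fold in OIS and 4.70-fold in RS, and both other probe sets were past 2-fold in each state.

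Contactins and receptors for guidance cues completed the list. CNTN4, a contactin, was at 2.5, 10.0 and 196, at least 4.31-fold higher in RS, while CNTN3 was at 1948, 878 and 1214, 2.22-fold lower in OIS. PLXNA2, a semaphorin receptor subunit, was 3.50-fold higher in RS at 80.5, 96.3 and 282, with its other probe sets from 0.09 to 2.18 on the log2 scale. UNC5B, a netrin receptor, was at 367, 612 and 141, 2.60-fold lower in RS, where its other probe sets were at -0.52 and -0.27. NTN4, a netrin of basement membranes, was 2.07-fold lower in RS at 6044, 3800 and 2926. NRP1, a semaphorin and VEGF co-receptor, was 2.02-fold lower in OIS at 4356, 2152 and 2552, but its other probe set was at -0.28. Over all 8 lists 61 genes were above the floor, of which 4 were at least 2-fold higher and 7 lower in OIS, and 9 higher and 6 lower in RS. Over all genes the shares were 4.92% and 6.63% in OIS and 3.72% and 5.58% in RS.

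**Figure D4:**
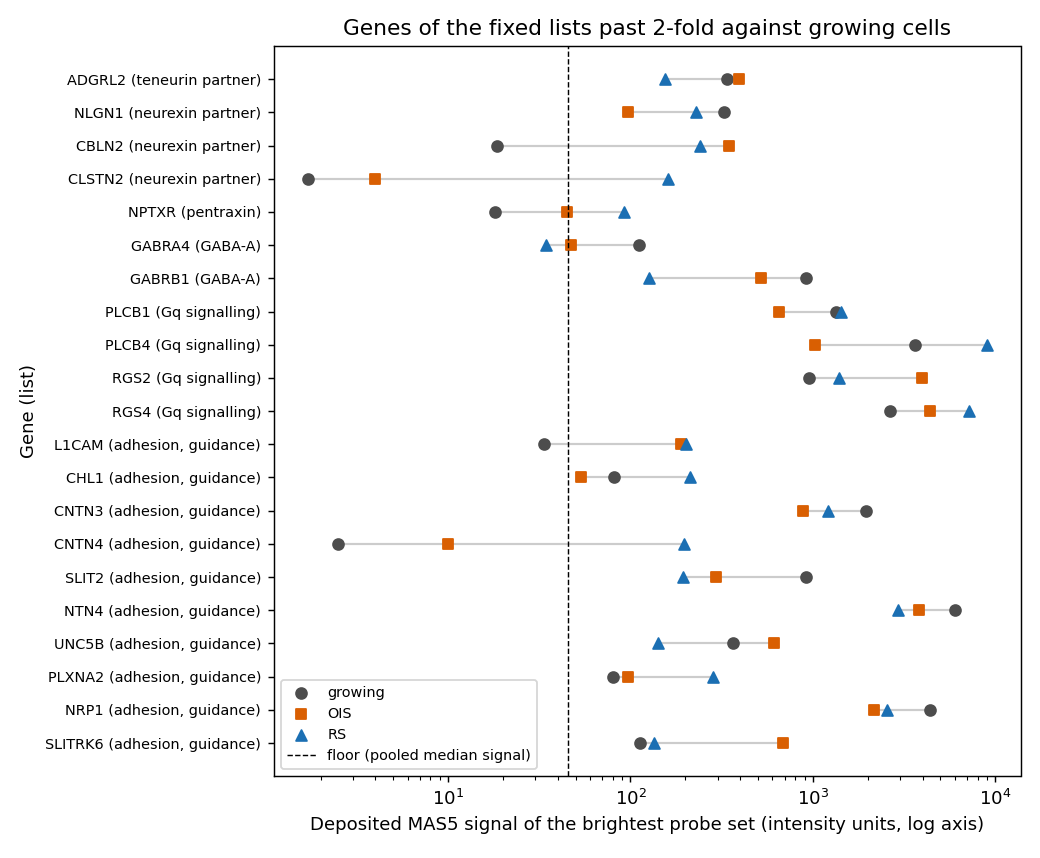
MAS5 signal (log axis) of the 21 genes of the partner, signalling and guidance lists that were past 2-fold in OIS or RS against growing cells, on the growing (circles), OIS (squares) and RS (triangles) arrays, with the floor of 45.5 dashed. PLCB4 reads 1022 in OIS and 8944 in RS, SLITRK6 is highest in OIS at 686, and CLSTN2 and CNTN4 are above the floor in RS alone.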

How the data were processed

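Total RNA of 3 cultures was labelled with biotin by the standard Affymetrix procedure, per the labels' protocols, and read on 1 array each. The deposited intensity of a probe set is on a linear scale and, per the submitters' processing notes, comes from MAS5; its version and settings are not stated. Each array is scaled by MAS5, so a shift of all genes would be removed; the 2% trimmed mean was 497 on each array. Genes were named from the platform annotation, and all 8 symbols were found in RefSeq.

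Signals below the pooled median of 45.5 were raised to it before log2 ratios were formed, and 2-fold was the size of a call. A listed gene was represented by the brightest of its probe sets (mean log2 signal). No column was left unmapped. The members and lists were chosen with earlier results of these data known. All 8 genes, list genes past 2-fold against growing cells and the 3 nearest patterns are named, with CNN1 and other markers and list genes short of 2-fold chosen after their values were seen. The alternatives were quantile normalization, median centring, floors at the 25th (11.7) and 60th (88.8) percentiles, a pseudocount of 16 without a floor, 3-fold, no filter, leaving out probe sets ending in _s_at, _x_at or _a_at (which can read several transcripts), and the median of a gene's probe sets. Steps were tested on simulated data. Python 3.11.15, numpy 2.4.6, pandas 2.3.3 and matplotlib 3.10.9 were used.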

Additional observations from a re-analysis of the deposited data

Results flagged for a closer look

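Against the same growing array, OIS and RS moved in opposite directions, each by more than the SD between probe sets, for 6 probe sets of 3 genes. The difference was not tested, since each condition had 1 array. OXTR had a log2 ratio of -4.17 in OIS and 0.65 in RS. NRXN3 had -2.25 and 1.31 by probe set 229649_at, -1.38 and 1.54 by 205795_at, and -0.38 and 0.57 by 215021_s_at. The OIS values of the last 2 are bounds, since the OIS signal was below the floor. With the floor at the 60th percentile both ratios of 215021_s_at were 0. GABRA2 had 4.70 and -0.76 by 207014_at and 5.13 and -0.64 by 216039_at, where -0.64 is a bound, since the RS signal was below the floor. The GABRA2 probe set 237250_at was higher in RS too, at 0.50, so the direction of GABRA2 in RS was not shared by its probe sets.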

How the results depend on the processing

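No paired analysis was possible because each condition has 1 array. Of 210 log2 ratios recomputed for the 14 probe sets above the floor, 173 stayed within 1 SD between probe sets, 37 moved further and none past 2-fold changed sign. The 84 under quantile normalization and median centring stayed within it, and those that moved did so under another floor or the pseudocount, which set the values of dim signals. At 3-fold, the counts of member probe sets fell from 4 to 2 lower in OIS over growing and from 4 to 1 higher in RS over growing. With the floor at the 25th percentile, 2 in place of 1 were lower in RS over growing. For the list genes at 3-fold, 3 in place of 7 were lower in OIS over growing, 5 in place of 9 higher and 2 in place of 6 lower in RS over growing, and 3 in place of 7 higher and 4 in place of 8 lower in OIS over RS. With the floor at the 25th percentile 9 list genes were higher and 13 lower in OIS over growing, and 11 lower in RS over growing. With a gene taken as the median over its probe sets, 4 were lower in OIS over growing, 3 lower in RS over growing, and 4 higher and 5 lower in OIS over RS, and the cause was not tested. Signals near the floor, as of NRXN3 in OIS and GABRA2 in growing and RS cells, limit the folds that can be given.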

Other observations

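Genes that lie beside the members on the chromosome had patterns of their own. RAD18, a ubiquitin ligase of DNA repair whose gene is next to OXTR, read 560, 123 and 277 in growing, OIS and RS cells. On the other side of OXTR, the LIM-domain gene LMCD1 read 432, 722 and 625, and SSUH2 was below the floor. CAV3, the muscle caveolin whose gene overlaps OXTR, was at 67.9, 36.5 and 11.0. TENM2 had its own probe set below the floor, and 2 protein-coding genes before it, the hyaluronan-mediated motility receptor gene HMMR read 4281, 498 and 727. NEIL3, a DNA glycosylase gene 2 places before TENM3, read 756, 95.2 and 105, and CEP128, a centriole gene 2 places after NRXN3, read 660, 99.5 and 144. Between NRXN3 and CEP128 lies DIO2, the deiodinase that activates thyroid hormone, at 284, 530 and 594. NPTX1 lies between ENDOV, at 273, 298 and 190.2, and RPTOR, at 120, 109 and 108.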
